A study of Mus musculus with 8 samples.

Results

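Hepatokines are proteins that the liver releases into the blood and that act on other tissues. The 10 hepatokine genes described here are Enho, Ahsg, Fetub, Selenop, Lect2, Fgl1, Inhbe, Inhba, Gdf15 and Tsku. They were chosen by symbol from the 17810 genes of the deposited count table, and no rule on their values was applied. Earlier results of these data were known when the choice was made, so it was not blind to them. All 10 were listed and had enough counts to be tested in the main comparison. The values come from RNA-Seq of whole livers of 4 WT and 4 HKO littermate male mice, 1 library per liver. HKO mice carry loxP-flanked miR-33 alleles and Albumin-Cre, whose promoter is active in hepatocytes, so the deletion is aimed at that cell type. Whether other liver cells keep miR-33 was not measured in these data. The labels call the controls WT and do not say whether they carry the floxed alleles. Both genotypes received CD-HFD, a high-fat diet that lacks choline, from the age of 8 weeks and over 3 months, a model of metabolic dysfunction-associated steatotic liver disease, and were 5 months old when their livers were perfused with PBS and frozen. There was no group on a normal diet. Titles and column names give each liver its own animal number, but the descriptions of all 4 WT samples repeat the number of 1 of them. The 4 WT livers were counted as separate animals by title, and if they were not, the p-values would measure a spread that is partly technical.

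Most hepatokines enter the blood through the hepatocyte secretory pathway and reach receptors in muscle, fat, brain, kidney or immune cells. In fatty liver several of them are known for links to insulin action, food intake and fat storage. miR-33 lies in an intron of Srebf2 and lowers the level or translation of mRNAs whose 3'UTR pairs with its seed, the bases near its 5' end.

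The sequence of miR-33 is shown because its seed sets which transcripts can pair with it directly. It is taken from RefSeq for GRCm38.p6, chr15:82198127-82198147 on the plus strand, with the seed (bases 2 to 8) in capitals.
mmu-miR-33-5p: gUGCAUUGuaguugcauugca

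Matches to this seed were searched as CAATGCA, or as AATGCAA, in 1 annotated 3'UTR per gene, that of its longest coding transcript. They were found in 2 of the 10 hepatokines, Selenop and Tsku, and in 15.8% of the 11582 tested genes that have a 3'UTR. The Tsku site is the longer 8-base form CAATGCAA, which 1 of the 10 hepatokines and 2.05% of those genes hold. Both sites are shown on GRCm38 with the matched bases in capitals. Selenop lies at chr15:3280477-3280505 on the plus strand, with the match starting at base 778 of a 3'UTR of 797 bases. Tsku lies at chr7:98351145-98351174 on the minus strand, at base 895 of 1390.
Selenop: ttatcaaaataAATGCAAttttaaaacct
Tsku: cttttctacgtCAATGCAAttgtggccatc

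These words were not found in the 3'UTRs of Enho, Ahsg, Fetub and Inhbe, the 4 hepatokines that differed between the genotypes, and neither Selenop nor Tsku passed the test, as given below. A match describes letters and is not a measured interaction.

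Total counts were 12174339 to 18319736 in WT and 12509201 to 18735785 in HKO livers, so that 3 counts, the smallest level taken as detectable, correspond to 0.149 to 0.255 CPM (counts scaled to a common library size by TMM), covering counting error only. Mir33 was not analysed here, and the genotype of each library rests on its label. The order numbers of the HKO libraries all come before those of the WT libraries, so place in that order and genotype cannot be told apart. Hepatocyte markers were abundant, with a summed level of 79200 to 113000 CPM in WT and 68400 to 123000 CPM in HKO livers. Most of this sum was Alb, at 62230 to 95990 CPM in WT and 47020 to 98720 CPM in HKO livers (log2 fold change -0.027). Of the 8 markers 6 had higher and 2 had lower means in HKO livers (median log2 fold change 0.323). By edgeR 5 were higher and 0 lower at an unadjusted p under 0.05, and 3 (Hnf4a, Cps1 and Tat) passed as higher. Cps1 and Tat kept this call in all 8 fits that each omitted 1 liver, and Hnf4a in 1. Of 9 stellate and fibroblast markers, 3 (Col1a1, Col1a2 and Col3a1) passed as lower. The others did not pass, and their log2 fold changes ran from -0.48 to 0.23. Among all 9, 7 had lower and 2 had higher means in HKO livers (median log2 fold change -0.465). Added up, WT livers held 398 to 593 CPM of these markers and HKO livers 322 to 430. The largest part of this sum came from a marker that did not pass, at a log2 fold change of -0.066. The call is thus one on collagen transcripts and not on the list as a whole. By edgeR 0 of 9 macrophage and 0 of 7 endothelial markers passed the test, and 0 of either had an unadjusted p under 0.05 (DESeq2 and limma-voom also called 0). Their sums were 104 to 268 and 69.1 to 221 CPM in WT against 77.5 to 245 and 110.0 to 253 CPM in HKO livers. Of the 7 endothelial markers 6 had higher means in HKO livers (median log2 fold change 0.479), and DESeq2 had 1 at an unadjusted p under 0.05. The median of the macrophage markers was -0.028. The 7 lymphocyte markers were too low to be tested and summed to at most 3.66 CPM in any liver. Of 5 erythroid markers 4 had lower means in HKO livers (median log2 fold change -1.89), but edgeR, DESeq2 and limma-voom called 0, with 0 at an unadjusted p under 0.05 in edgeR and 4 in DESeq2. Their sum was 61.9 to 263 CPM in WT and 65.9 to 105 CPM in HKO livers, with Hba-a1 at 71.5 and 71.0 CPM in WT replicates 2 and 4 and at 2.70 to 21.5 CPM in the other 6 livers. The adipocyte marker Cfd had a log2 fold change of -2.65 (edgeR unadjusted p = 0.0184, adjusted p = 0.152). HKO replicate 1 held Lep at 2.09 and Adipoq at 1.42 CPM, where the other 7 livers were at 0.386 CPM or below for both. The other adipocyte markers did not set this liver apart. Retn was higher in HKO replicate 2, at 0.694 against 0.270 CPM, and Cfd in HKO replicate 1, at 1.28 CPM, lay within the range of the other livers. HKO replicate 2 stood apart on some markers of bile duct cells. It held Epcam at 16.5 and Krt19 at 16.9 CPM, where the other 7 livers were at 1.07 CPM or below for both. Krt7 at 3.32 and Spp1 at 63.1 CPM were also highest in this liver. Sox9 was instead highest in HKO replicate 3, at 15.5 CPM against 7.87 CPM in HKO replicate 2. Of these 5 markers 3 were tested, 0 passed in edgeR, and the median log2 fold change was 0.615. The part of these marker differences in the results below was not tested. In whole liver, fewer cells of a type and less RNA per cell cannot be told apart.

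Of the 10 hepatokines, 4 had an adjusted p under 0.05 (edgeR quasi-likelihood, Benjamini-Hochberg). Enho, Ahsg and Fetub were higher and Inhbe was lower in HKO livers. Over all 12395 genes tested, 5.15% passed, 1.71% as higher and 3.44% as lower. The 4 HKO values lay wholly outside the range of the 4 WT values in the same 4 hepatokines and in 12.5% of all genes tested. The median log2 fold change was 0.094 over the 10 hepatokines and 0.0092 over all genes tested. DESeq2, limma-voom, other scalings and the absence of an expression filter each called 4 of the 10 as well.

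**Figure D1:**
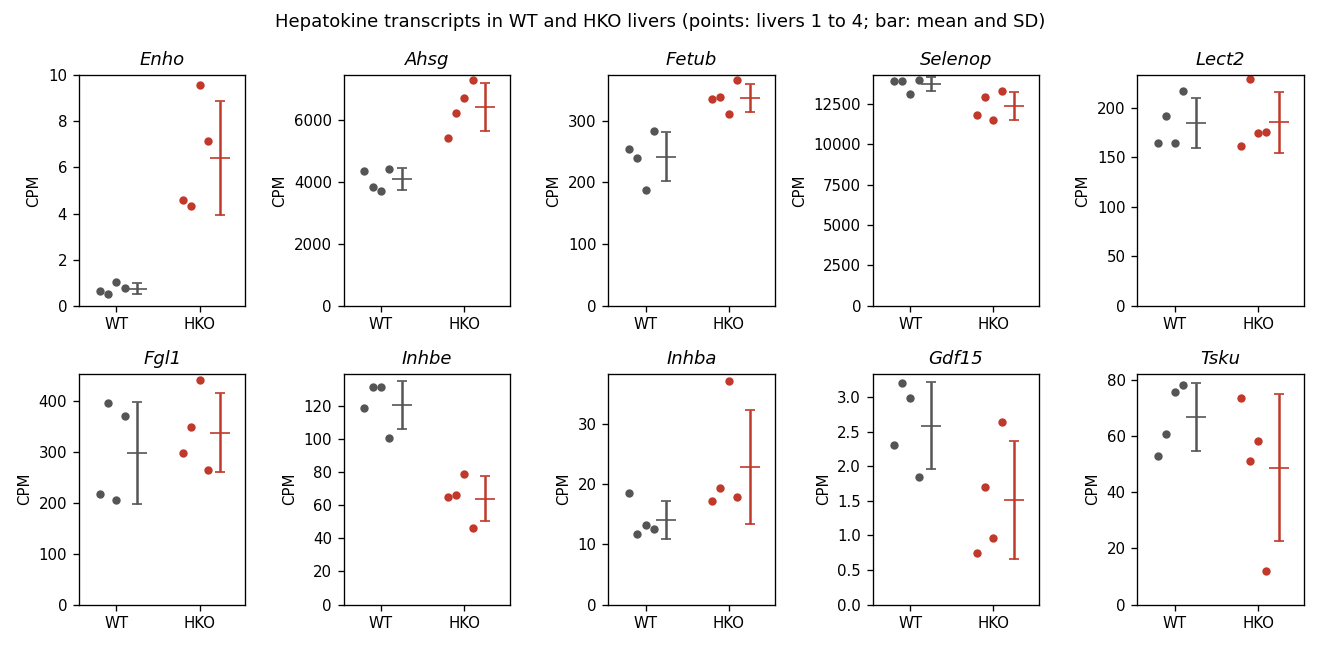
Level of each hepatokine in CPM (vertical axes from 0) in 4 WT and 4 HKO livers, with points for livers and a bar for the mean and SD beside them. Enho lies between 0.488 and 1.04 CPM in WT and between 4.32 and 9.57 CPM in HKO livers, and the points of Ahsg, Fetub and Inhbe are also separate, whereas those of Selenop, Lect2, Fgl1, Inhba, Gdf15 and Tsku overlap.

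The hepatokines covered a wide range of abundance. Their counts made up 1.90% to 1.96% of all counts in WT and 1.78% to 2.06% in HKO livers, nearly all from Selenop and Ahsg. Levels were compared between genes as CPM per kb of exon. Selenop led in WT livers at 5794 ± 182 CPM per kb (SD, n = 4), followed by Ahsg at 2740 ± 239.9, Fgl1 at 267 ± 89.4, Lect2 at 200.3 ± 27.5, Fetub at 127 ± 20.9, Inhbe at 54.5 ± 6.59 and Tsku at 22.7 ± 4.09. Inhba at 2.19 ± 0.488, Gdf15 at 1.40 ± 0.338 and Enho at 0.597 ± 0.187 CPM per kb closed the WT order. Of neighbours in that order, Fgl1 and Lect2 overlapped between livers and the other pairs did not. In HKO livers Enho stood at 5.14 ± 1.98 CPM per kb (SD, n = 4), above Inhba at 3.58 ± 1.49 and Gdf15 at 0.814 ± 0.462, and thus moved from place 10 to place 8. The levels of Enho and Inhba overlapped in HKO livers, as did those of Selenop at 5222 ± 360.4 and Ahsg at 4311 ± 527 CPM per kb, which were separate in WT livers. Fgl1 and Lect2, Lect2 and Fetub, Inhbe and Tsku, and Tsku and Enho were the other neighbours in the HKO order that overlapped. Among the 12086 tested genes with a known exon length, the mean level of Enho was at percentile 11.2 in WT and 52.5 in HKO livers, that of Inhbe at 91.8 and 86.0, and that of Ahsg at 99.8 in both.

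**Figure D2:**
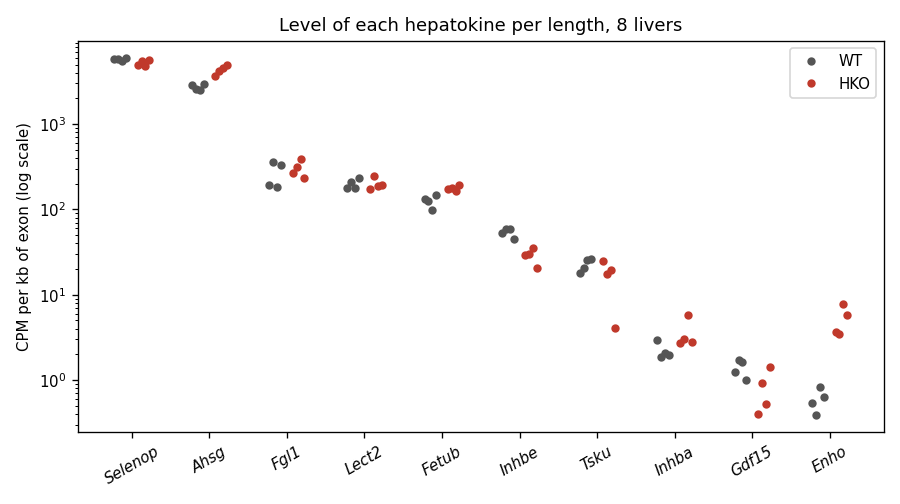
Level of each hepatokine per kb of exon on a log scale, with 1 point per liver, WT in grey and HKO in red, ordered by the WT mean. Selenop and Ahsg stand at 2487 CPM per kb or more in every liver, and Enho, lowest in WT livers at 0.391 to 0.836, reaches 3.46 to 7.67 CPM per kb in HKO livers.

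Enho (chr4:41638144-41640302, minus strand, GRCm38) encodes adropin, a small secreted peptide linked to glucose and lipid metabolism and known from liver and brain. Its level was 0.661, 0.488, 1.04 and 0.788 CPM in WT replicates 1 to 4 and 4.58, 4.32, 9.57 and 7.14 CPM in HKO replicates 1 to 4. The lowest HKO liver was above the highest WT liver, and the HKO livers differed among themselves more than the WT livers. From 0.745 ± 0.234 CPM (SD, n = 4) in WT it rose to 6.40 ± 2.46 CPM (SD, n = 4) in HKO livers, which is a log2 difference of 3.06 (standard error 0.33, 95% interval 2.34 to 3.78), or 8.35-fold. The adjusted p was 0.000686 from edgeR's quasi-likelihood test, and Enho ranked 14 by p and 21 by increase among the 12395 genes. The WT values rest on 8, 7, 21 and 12 counts and the HKO values on 68, 56, 170 and 84 counts, so counting error weighs most in the WT livers. The increase passed the threshold in each of the 8 leave-one-liver-out fits, at log2 fold changes of 2.80 to 3.30. The annotation places the antisense gene Gm12406 over Enho, and at its end Enho overlaps Dnaic1 of the opposite strand. Dnaic1 averaged 0.0248 CPM (WT) and 0.22 CPM (HKO), too low to be tested. Whether counting used strand was not stated.

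Ahsg and Fetub encode the fetuins, plasma glycoproteins with cystatin domains. Fetuin-A (Ahsg) binds calcium phosphate and inhibits the insulin receptor kinase, and fetuin-B (Fetub) inhibits ovastacin, a protease of the egg. The genes lie side by side on chromosome 16, Ahsg at chr16:22892015-22899451 and Fetub at chr16:22918382-22939768, both on the plus strand and 18.9 kb apart. Ahsg was at 4346, 3853, 3706 and 4428 CPM in WT and at 5433, 6247, 6724 and 7287 CPM in HKO replicates 1 to 4. The lowest HKO value exceeded the highest WT value. It rose from 4083 ± 357 CPM (SD, n = 4) to 6423 ± 785 CPM (SD, n = 4), a log2 fold change of 0.65 (standard error 0.11, 95% interval 0.41 to 0.90), or 1.57-fold, with an adjusted p of 0.00814 from edgeR. This call held in each of the 8 leave-one-liver-out fits. Gm30505, an antisense gene that overlaps Ahsg, averaged 1.22 CPM in WT livers and 1.18 CPM in HKO.

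Fetub was at 254, 239.8, 188 and 283 CPM in WT and at 334, 338, 310.1 and 365 CPM in HKO replicates 1 to 4. The groups did not overlap, but the gap between them was small. Its mean rose from 241 ± 39.8 CPM (SD, n = 4) to 337 ± 22.6 CPM (SD, n = 4), a log2 fold change of 0.48 (standard error 0.12, 95% interval 0.23 to 0.73, edgeR adjusted p = 0.0353). The call was lost in 5 of the 8 fits that left out a liver, with adjusted p of 0.0768 without WT replicate 1, 0.107 without WT replicate 2, 0.0575 without HKO replicate 1, 0.0701 without HKO replicate 2 and 0.0965 without HKO replicate 4 (edgeR), while its log2 fold change kept between 0.38 and 0.57. Some deposited counts of both fetuins were fractional, for Fetub in 8 livers and for Ahsg in 7, and the quantification method splits reads that match more than 1 place. Counts of Fetub per 100 counts of Ahsg were 5.08 to 6.40 in WT and 4.61 to 6.16 in HKO livers and overlapped.

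The promoters of both fetuin genes are shown because the genes are neighbours that were both higher. The sequences, from RefSeq for GRCm38.p6, run from 250 bases before to 50 bases after the start, and 8 of the 10 hepatokines matched this table, all but Enho and Fgl1. The Ahsg window is chr16:22891765-22892064 and the Fetub window chr16:22918132-22918431, both on the plus strand, and the Fetub window is that of the start the deposited coordinates give, 1 of 2 in the table. Capitals mark a TTGCNNAA word (C/EBP-like, read on the minus strand) at base -32 of Ahsg and a TATAAA word at base -31 of Fetub, counted from the start.
Ahsg: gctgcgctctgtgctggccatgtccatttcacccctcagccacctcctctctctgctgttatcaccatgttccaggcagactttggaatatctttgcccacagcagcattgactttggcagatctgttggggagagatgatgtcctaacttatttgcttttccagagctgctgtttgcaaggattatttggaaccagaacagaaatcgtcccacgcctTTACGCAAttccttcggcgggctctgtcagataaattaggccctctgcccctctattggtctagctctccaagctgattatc
Fetub: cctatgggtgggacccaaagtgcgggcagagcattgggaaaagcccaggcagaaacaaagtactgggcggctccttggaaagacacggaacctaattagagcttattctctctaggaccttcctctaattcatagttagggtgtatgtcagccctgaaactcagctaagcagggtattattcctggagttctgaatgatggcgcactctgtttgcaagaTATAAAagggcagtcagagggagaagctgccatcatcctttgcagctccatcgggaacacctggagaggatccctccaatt

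TTGCNNAA on either strand is found in 10.8% of the 32851 promoters of the same length and TATAAA on the forward strand in 8.32%. Neither word is shared by the 2 windows. The words searched besides these were TGATGNAA, an ATF4-like word that can overlap TTGCNNAA, and GTTAAT, an HNF1-like word, both on either strand. Hepatokines that did not pass the test held such words too. Inhba held TATAAA and TTGCNNAA, and Lect2 and Gdf15 held GTTAAT. The words marked in the fetuin windows are thus not particular to the hepatokines that differed. Among the hepatokines with a listed promoter, the ATF4-like word was found only in Inhbe, which differed. The HNF1-like word was found only in Lect2 and Gdf15. Such matches describe letters only.

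Next to Fetub lies Hrg, 11.3 kb away, which encodes histidine-rich glycoprotein, another cystatin family protein of plasma. Hrg averaged 1070 CPM (WT) and 1390 CPM (HKO) without overlap, but had an adjusted p of 0.0507 from edgeR's quasi-likelihood test. Cstb, encoding cystatin B, an inhibitor of lysosomal cysteine proteases, differed by -0.27 on the log2 scale (edgeR adjusted p = 0.353). Of the 7 cystatin family genes besides the fetuins 5 could be tested. By edgeR 0 passed and 2, Hrg and Kng1, had an unadjusted p under 0.05, whereas DESeq2 and limma-voom each called 1, Hrg. The median log2 fold change of the 5 was 0.045.

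Inhbe and Inhba encode the beta E and beta A subunits of activins, dimeric ligands of the TGF-beta family. Activin A, a dimer of beta A subunits, signals through type II and type I activin receptors to SMAD2 and SMAD3, while the beta E subunit is made mainly by hepatocytes and its dimer is linked to fat storage. Inhbe (chr10:127349402-127351848, minus strand) was at 118, 131.4, 131.2 and 100.5 CPM in WT and at 64.7, 66.3, 78.8 and 45.9 CPM in HKO replicates 1 to 4. The groups were separate, the highest HKO liver being below the lowest WT liver. Its mean fell from 120.4 ± 14.6 CPM (SD, n = 4) to 63.9 ± 13.6 CPM (SD, n = 4), a log2 fold change of -0.91 (standard error 0.15, 95% interval -1.25 to -0.58), or 1.88-fold lower, with an adjusted p of 0.00921 from edgeR. All 8 fits that left out a liver kept this call.

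The Inhbe promoter, chr10:127351799-127352098 on the minus strand of GRCm38.p6 (RefSeq), is shown for the TGATGNAA word, read on its minus strand at base -181 and set in capitals, which 3.97% of promoters hold on either strand.
Inhbe: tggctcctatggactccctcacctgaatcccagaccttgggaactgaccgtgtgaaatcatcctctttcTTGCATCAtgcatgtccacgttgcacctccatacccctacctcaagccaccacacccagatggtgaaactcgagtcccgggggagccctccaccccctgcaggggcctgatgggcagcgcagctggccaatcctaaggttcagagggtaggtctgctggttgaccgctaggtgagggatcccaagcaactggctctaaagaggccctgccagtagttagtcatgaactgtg

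Inhba (chr13:16011851-16031609, plus strand) was at 18.6, 11.7, 13.2 and 12.5 CPM in WT and at 17.1, 19.3, 37.0 and 17.9 CPM in HKO replicates 1 to 4. The ranges overlapped, with HKO replicate 3 far above the other HKO livers. The means, 14 ± 3.12 CPM (WT) and 22.8 ± 9.52 CPM (HKO, SD, n = 4 each), differed by a log2 fold change of 0.72 (95% interval 0.08 to 1.35) that did not pass with an adjusted p of 0.2002 from edgeR. Leaving out HKO replicate 3 gave a log2 fold change of 0.38. Counts of Inhba per 100 counts of Inhbe, a ratio within a library that does not depend on scaling, were 8.92 to 15.7 in WT and 26.5 to 47.0 in HKO livers. The ratio was separate between the genotypes, and Inhbe remained the more abundant subunit in each liver.

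Inhbc, which lies 4.47 kb from Inhbe and encodes the beta C subunit, averaged 43.6 CPM (WT) and 48.3 CPM (HKO), a log2 fold change of 0.15 (95% interval -0.18 to 0.47, edgeR adjusted p = 0.651). There were 1.81 to 3.37 counts of Inhbe per count of Inhbc in WT and 0.911 to 1.72 in HKO livers, without overlap. Inhbb, the beta B subunit, differed by -0.38 (log2, edgeR adjusted p = 0.552). For Fst, encoding the activin-binding protein follistatin, the log2 difference was -0.22 (edgeR adjusted p = 0.888). Inha and Fstl3, at most at 0.0850 and 0.394 CPM in any liver, and Acvr1c were too low to be tested. Of the 13 tested genes of the activin pathway list, 1 passed as higher and 0 as lower in edgeR (4 higher and 0 lower at an unadjusted p under 0.05), and the median log2 fold change was 0.15. The 1 was Acvr2b, a type II activin receptor, at 7.01 ± 0.345 CPM (WT) and 11.7 ± 3.41 CPM (HKO, SD, n = 4 each), a log2 fold change of 0.74 (edgeR adjusted p = 0.0382) that passed in 1 of the 8 fits without a liver. DESeq2 called it as well and limma-voom called 0 genes of the list.

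**Figure D3:**
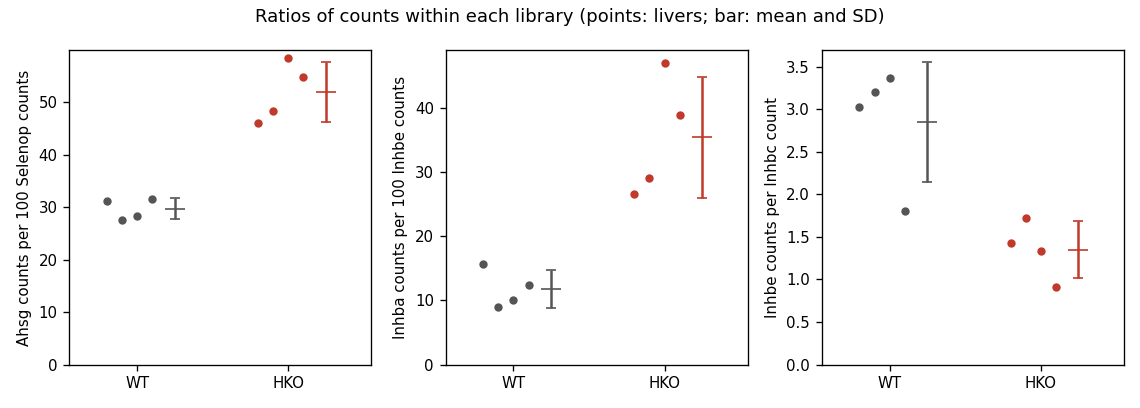
Ratios of counts within each library, with 1 point per liver and a bar for the mean and SD, vertical axes from 0. Ahsg per 100 Selenop counts lies at 27.6 to 31.6 in WT and 46.0 to 58.3 in HKO livers, Inhba per 100 Inhbe at 8.92 to 15.7 and 26.5 to 47.0, and Inhbe per Inhbc at 1.81 to 3.37 and 0.911 to 1.72, so the genotypes are separate in all 3 panels. Each ratio can differ through either of its genes, and Selenop, Inhba and Inhbc did not pass the test.

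Selenop (chr15:3270767-3280510, plus strand) encodes selenoprotein P, which carries selenium from the liver to brain, testis and other tissues. It was at 13950, 13950, 13110 and 14010 CPM in WT and at 11810, 12930, 11540 and 13310 CPM in HKO replicates 1 to 4. Most HKO livers were below the WT range, and HKO replicate 4 was within it. The log2 fold change was -0.15 (95% interval -0.35 to 0.05, edgeR adjusted p = 0.414), the narrowest interval of the 10 hepatokines. Ccdc152, which overlaps its end on the other strand, averaged 1.25 CPM in WT livers and 1.02 CPM in HKO. As a share of the summed hepatokine counts, Selenop took 71.8% to 74.5% in WT and 59.6% to 64.9% in HKO livers, whereas Ahsg took 20.4% to 22.7% and 29.9% to 34.7%. These are shares of the same sum, so the rise of Ahsg by itself lowers the share of Selenop. They are no separate result on Selenop. The 23 other selenoproteins and factors of selenocysteine insertion were all tested, and 0 passed as higher and 1 as lower in edgeR and in limma-voom, with a median log2 fold change of -0.036. At an unadjusted p under 0.05 edgeR had 1 higher and 4 lower, and DESeq2 called 1 as higher (Sephs2) and 2 as lower (Gpx3 and Gpx4). The gene lower was Gpx4, the glutathione peroxidase that reduces lipid hydroperoxides in membranes. Gpx4 was at 71.6, 67.3, 47.7 and 57.2 CPM in WT and at 32.9, 38.7, 37.9 and 36.9 CPM in HKO replicates 1 to 4. The groups did not overlap, the log2 fold change was -0.73 (edgeR adjusted p = 0.00588), and all 8 fits without a liver kept the call.

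**Figure D4:**
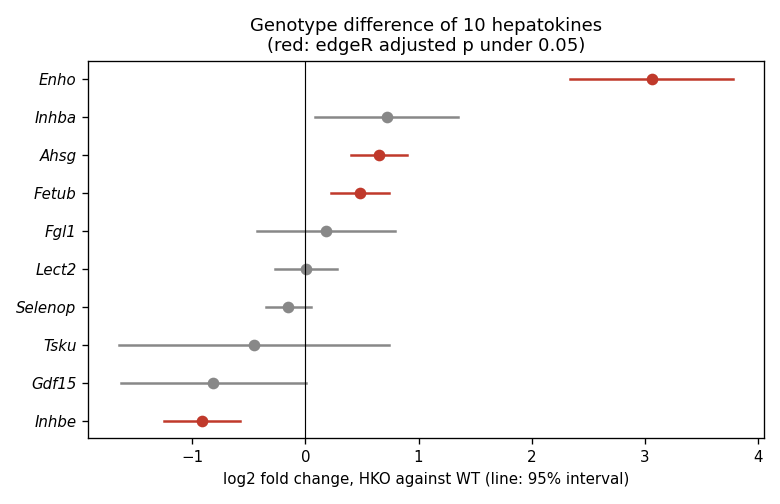
Log2 fold change of each hepatokine in HKO against WT livers (points) with its 95% interval (lines), in red where edgeR's adjusted p is under 0.05. Enho at 3.06, Ahsg at 0.65 and Fetub at 0.48 lie above 0, Inhbe at -0.91 lies below, and the widest interval, that of Tsku, runs from -1.65 to 0.74.

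Lect2 and Fgl1 encode plasma proteins of hepatocytes. Lect2 (leukocyte cell-derived chemotaxin 2) impairs insulin signalling in muscle, and Fgl1 (hepassocin) is a hepatocyte mitogen that also binds LAG-3, an inhibitory receptor of T cells. Lect2 (chr13:56542460-56548538, minus strand) was at 164, 192, 164 and 216 CPM in WT and at 161, 229, 174 and 176 CPM in HKO replicates 1 to 4. These ranges nearly coincided, and the log2 fold change was 0.0071 (95% interval -0.27 to 0.28, edgeR adjusted p = 0.986). Fgl1 (chr8:41191434-41215156, minus strand) was at 218, 398, 207 and 372 CPM in WT and at 299, 349, 443 and 264 CPM in HKO replicates 1 to 4. The WT livers fell into a low and a high pair, and the HKO values ran from between these pairs to above both. Its log2 fold change was 0.18 (95% interval -0.43 to 0.79, edgeR adjusted p = 0.778).

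Fgl1 is a fibrinogen-related gene induced by interleukin 6, so the IL-6 acute phase list was read beside it. Of its 16 genes, all tested, 4 passed as higher and 0 as lower in edgeR, although the median log2 fold change was -0.070. At an unadjusted p under 0.05 there were 6 higher and 1 lower. DESeq2 called 5 as higher (Crp besides the 4) and 1 as lower (Orm2), and limma-voom called 5 as higher (Crp besides the 4) and 0 as lower. The fibrinogen chains were 3 of the 4, namely Fga (log2 fold change 0.54, edgeR adjusted p = 0.0169), Fgb (0.61, adjusted p = 0.0216) and Fgg (0.54, adjusted p = 0.0292). Fga kept its call in 6, Fgb in 3 and Fgg in 2 of the 8 fits without a liver. The other was Stat3, the transcription factor downstream of the IL-6 receptor, which rose from 59.1 ± 5.68 CPM to 88.0 ± 6.33 CPM (SD, n = 4 each), a log2 fold change of 0.57 (edgeR adjusted p = 0.00411) kept in all 8 fits. Counts of Fgl1 per 100 counts of Fgb were 5.71 to 11.4 in WT and 4.44 to 6.75 in HKO livers and overlapped.

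Gdf15 and Tsku act on food intake and on energy use. Gdf15 (chr8:70629393-70632456, minus strand) encodes a stress-induced cytokine that lowers food intake through GFRAL in the hindbrain, and it is a target of ATF4 and CHOP in the integrated stress response. Its level was 2.31, 3.21, 2.98 and 1.84 CPM in WT and 0.741, 1.70, 0.957 and 2.64 CPM in HKO replicates 1 to 4. Although 3 HKO livers were below all WT livers, HKO replicate 4 lay within the WT range. The log2 fold change was -0.81 (95% interval -1.63 to 0.0036, edgeR adjusted p = 0.258) and rests on 28 to 60 counts per WT liver and 11 to 31 per HKO liver, and the interval reaches from a fall to no change. Leaving out HKO replicate 4 gave -1.21 (edgeR adjusted p = 0.106). Of 13 tested genes of the integrated stress response, 0 passed as higher and 1 as lower in edgeR, DESeq2 and limma-voom, with a median log2 fold change of 0.048. By edgeR 0 were higher and 3 lower at an unadjusted p under 0.05. Atf5, a transcription factor of this response that is abundant in liver, fell from 222 ± 30.8 CPM to 156 ± 13.2 CPM (SD, n = 4 each), a log2 fold change of -0.51 (edgeR adjusted p = 0.0187) kept in 6 of the 8 fits without a liver.

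Tsku (chr7:98350668-98361328, minus strand) encodes tsukushi, a secreted small leucine-rich protein that rises with thermogenesis. It was at 52.8, 60.7, 75.5 and 77.9 CPM in WT and at 73.5, 50.9, 57.98 and 11.99 CPM in HKO replicates 1 to 4. HKO replicate 4 was far below the other 7 livers, whose values were mixed between the genotypes. The log2 fold change was -0.45 (95% interval -1.65 to 0.74, edgeR adjusted p = 0.694), and -0.13 without HKO replicate 4. The same liver had the highest level of Igfbp1, a fasting-induced binding protein of insulin-like growth factors, at 125 CPM against 13.5 to 26.4 CPM in the other 7. Of 9 tested small leucine-rich proteoglycans of the matrix, 0 passed in edgeR and limma-voom and 1 (Fmod) in DESeq2, with 1 at an unadjusted p under 0.05 in edgeR and a median log2 fold change of -0.29. The 2 with the largest differences were Fmod, fibromodulin, at -1.96 (edgeR adjusted p = 0.193) and Ogn, osteoglycin, at -1.11 (edgeR adjusted p = 0.357), both highest in WT replicate 1.

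Among 21 other listed hepatokines, all tested, 0 passed as higher and 2 as lower in edgeR and in limma-voom, and the median log2 fold change was -0.045. At an unadjusted p under 0.05 edgeR had 3 higher and 4 lower, and DESeq2 called 1 as higher (Angptl8) and 3 as lower (Fgf21, Gpnmb and Ctsd). Fgf21, the fasting-induced hormone that acts through FGFR1 and beta-klotho, was at 1.90, 3.07, 1.54 and 1.97 CPM in WT and at 0.876, 0.154, 0.169 and 0.510 CPM in HKO replicates 1 to 4. The groups did not overlap, and the log2 fold change of -2.30 (edgeR adjusted p = 0.0198) rests on 2 to 13 counts per HKO liver and was kept in 7 of the 8 fits without a liver. Gpnmb, a transmembrane glycoprotein whose shed part is released by liver and macrophages, was at 0.909, 0.767, 1.49 and 1.38 CPM in WT livers and at 3 counts or fewer in each HKO liver (edgeR adjusted p = 0.00551). Of the receptors listed for hepatokines, 10 were tested and 0 passed in edgeR, DESeq2 or limma-voom, with 2 at an unadjusted p under 0.05 in edgeR and a median log2 fold change of 0.28. The largest differences among them were those of Fgfr1, 0.69 (edgeR adjusted p = 0.384), and Fgfr4, 0.35 (edgeR adjusted p = 0.166), both receptors of fibroblast growth factors.

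**Figure D5:**
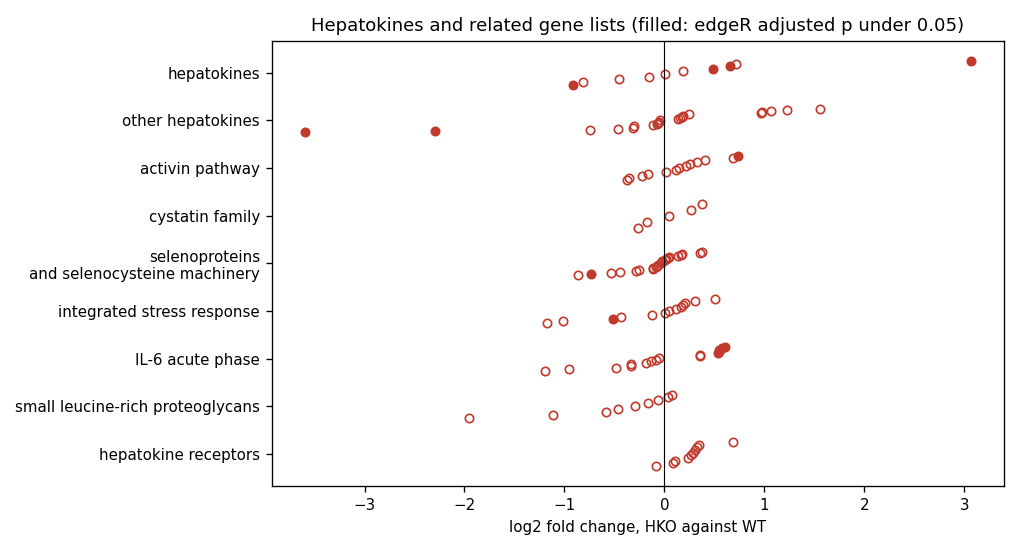
Log2 fold change of every tested gene (1 circle each) in the hepatokine list and 8 related lists, HKO against WT, filled where edgeR's adjusted p is under 0.05. The 10 hepatokines hold 4 filled circles, from -0.91 for Inhbe to 3.06 for Enho, the IL-6 acute phase list holds 4, all above 0, and the cystatin family, small leucine-rich proteoglycans and receptors hold none.

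The called hepatokines were also read without HKO replicate 2, the liver with the highest Epcam and Krt19. The log2 fold change was then 3.21 for Enho (edgeR adjusted p = 0.000969), 0.67 for Ahsg (adjusted p = 0.0190), -0.93 for Inhbe (adjusted p = 0.0240) and 0.48 for Fetub (adjusted p = 0.0701). The differences were thus of similar size without it, and the Fetub call was lost. Without HKO replicate 1, WT replicate 2 or WT replicate 4, each left out alone, Enho, Ahsg and Inhbe kept their calls, and Fetub kept its own in the last of these fits. With total count scaling, the genes passing the threshold were 119 higher and 628 lower, against 212 higher and 426 lower with TMM, and the median over all genes was -0.080. The 4 calls among the hepatokines kept their direction and their side of the threshold under it.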

How the data were processed

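Liver RNA of 4 WT and 4 HKO mice was sequenced. The authors deposited estimated counts per gene, made with STAR and Partek's expectation-maximization quantification (named in the labels and the file), without normalization. Versions, and whether strand was used, were not given in the sources used here. The labels name both rRNA depletion and a small RNA library kit, so the library type is uncertain. Of the deposited estimated counts 83.9% were whole (tolerance 0.001); all were rounded. Groups and replicate numbers came from the labels, and columns were matched to samples by title. Totals per liver, given in the report, set the precision for low genes.

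Counts were tested with edgeR 4.0.16 (R 4.3.3): TMM scaling, filterByExpr (minimum count 10), robust quasi-likelihood fit, Benjamini-Hochberg adjustment over 12395 genes, threshold 0.05. Standard errors and 95% intervals derive from the test's F. Other models were limma-voom (limma 3.58.1) and DESeq2 1.42.0. Scaling by total count, upper quartile or RLE, no filter, 10 counts in every liver, a block for the replicate number, a fold above 1.5 and leaving out each liver were also tried. Counts of 12257 genes were simulated once, with edgeR's own count model and the spread it fitted here. The 200 genes changed had a mean above 1 CPM. Of those with a log2 change of 2 edgeR found 93%, and of those with a log2 change of 1 it found 73%. False calls were 3.49% of its calls, 14.2% of those of DESeq2 and 2.92% of those of limma-voom. Smaller changes, such as those of Ahsg, Fetub and Inhbe, were not simulated. Because the model was edgeR's own, these rates may not hold for the measured counts.

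The hepatokines, the gene lists and the tests were chosen with earlier results of these data known. The text names all 10 hepatokines, Fgf21, Inhbb, Inhbc, Inha, Fst, Fstl3 and, per list, the genes past the threshold or, where none passed, the 2 with the largest absolute log2 fold change. Igfbp1, the cell markers with values, Kng1 and the genes named as called by DESeq2 or limma-voom alone were named after their values were seen. Exon lengths and 3'UTRs are from GENCODE for GRCm38. The authors' coordinates end 1 base past the gene's last base, so 1 was subtracted.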

Additional observations from a re-analysis of the deposited data

Results flagged for a closer look

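In 86 groups of 4 livers (43 genes named in the text, each in 2 genotypes), 10 held a liver whose gap to the others passed the limit of Dixon's test, where chance gives about 4. Igfbp1, Epcam, Krt19 and Adipoq were named because a liver stood apart, so their flags are no count against chance. Selenop was at 13110 CPM in WT replicate 3 and at 13950 to 14010 CPM in the other WT livers. Inhba was at 37.04 CPM in HKO replicate 3 and at 17.12 to 19.28 CPM in the other HKO livers. Inhbc was at 55.41 CPM in WT replicate 4 and at 38.95 to 41.0 CPM in the other WT livers. Hnf4a, a hepatocyte transcription factor, was at 470.9 CPM in WT replicate 3 and at 434.5 to 440.6 CPM in the other WT livers. Ogn was at 1.021 CPM in HKO replicate 4 and at 4.449 to 5.122 CPM in the other HKO livers, and Igfbp1 in the same liver was at 124.8 CPM against 22.83 to 26.4 CPM. HKO replicate 2 held Epcam at 16.5 CPM and Krt19 at 16.89 CPM, the other HKO livers being at 0.4503 to 1.021 and 0.1689 to 0.4045 CPM. Adipoq was at 1.416 CPM in HKO replicate 1 and at 0 to 0.2314 CPM in the other HKO livers, and 1 count (0.06974 CPM) in WT replicate 2 stood against 0 in the other WT livers.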

How the results depend on the processing

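The number of hepatokines past the threshold was 4 in the main analysis and 3 to 4 when a liver was left out, 3 with a fold above 1.5 and 3 with at least 10 counts in every liver, where Enho was not tested. Over all genes 638 passed, against 1014 with DESeq2, 371 with a fold above 1.5, and 222 (without WT replicate 2) to 599 when a liver was left out, with 293 without WT replicate 1 and 369 without HKO replicate 4. Fits without a liver have fewer samples. Lect2, near 0 in the main analysis, was negative with total count scaling (-0.073), without WT replicate 1 (-0.043), without WT replicate 3 (-0.044) and without HKO replicate 2 (-0.11). It ranged from -0.11 to 0.096 when a liver was left out, and the cause was not tested. The 8-base match left 1 hepatokine with a miR-33 site in place of 2, by its construction. Of the recomputed fold changes of the hepatokines, 150 kept direction and side of the threshold, 5 lost the call (all Fetub) and 4 changed sign (all Lect2).

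The replicate numbers belong to different mice, and same-numbered livers did not deviate together (correlations -0.062, 0.012, -0.085 and -0.148). With the replicate block 470 genes and 4 hepatokines passed. Low counts limit Enho and Gdf15.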
